A study of Mus musculus with 10 samples.

Results

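The genes described here are 9 that mark or drive the type 1 helper (Th1) programme of T cells. Tbx21, Eomes, Runx3, Hlx and Stat4 encode transcription factors, and Hopx a small homeodomain protein. Ifng is a cytokine gene, and Il12rb2 and Il18r1 are receptor genes. All 9 genes were taken by symbol from a count table of 27179 genes, where each was found. Of the 9, 8 had enough reads to be tested among 13214 genes in all (Hlx did not). They were followed in regulatory T cells (Tregs), CD4 T cells that are defined by the factor Foxp3 and hold immune responses in check. The study asked what the transcription factor c-Maf, encoded by Maf, does in Tregs of the intestine. Its Tregs were sorted as CD4-positive, TCR beta-positive and YFP-positive cells from C57BL/6 mice, from the gut (colon and small intestine together) or the spleen.

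All mice carried Foxp3Cre-YFP, an allele in which the Foxp3 gene drives Cre recombinase and the yellow reporter used for the sort. Control mice had that allele alone (called WT), and Maf-KO mice carried floxed Maf as well (Maffl/fl x Foxp3Cre-YFP), so that Maf is lost only in cells that express or expressed Foxp3. WT gut gave 2 libraries (replicates 1 and 3) and Maf-KO gut 2 (replicates 2 and 3), and each genotype gave 3 spleen libraries. The sources used here give neither age and sex nor whether animals were pooled. Nothing in the labels ties a library to its own animal, and the tests therefore rest on the spread between libraries, which may be partly technical.

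In textbook terms, IL-12 binds a receptor of the chains Il12rb1 and Il12rb2 and activates STAT4, and IL-18 binds Il18r1 with its partner chain Il18rap. Both cytokines act with T-bet, the product of Tbx21, and with Runx3 to turn on interferon gamma, the product of Ifng. Hlx is a homeobox factor that acts with T-bet, Eomes is a second T-box factor best known in CD8 T cells and natural killer (NK) cells, and Hopx is a small homeodomain protein that Th1 cells and peripheral Tregs express. Tregs in peripheral tissue can take up T-bet and parts of the Th1 programme while keeping Foxp3.

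Levels below are CPM, counts relative to the library total scaled with the factors of the test, or the authors' FPKM where genes are compared with each other, since FPKM also divides by transcript length. The libraries held 8567035 to 13983965 counts, and 3 counts, used as the floor of detection, were worth 0.231 to 0.377 CPM. Maf, the deleted gene, was at 107.9 and 108.6 CPM in WT gut and 24.0 to 45.9 in WT spleen, against 0.195 to 1.10 CPM in the 5 Maf-KO libraries, so it matched every genotype label. Foxp3 lay between 114.2 and 211.4 CPM in all libraries and was not called different between the genotypes (adjusted p of 0.928 in gut and 0.999 in spleen, edgeR). It was called higher in gut than in spleen in WT (log2 change 0.53, adjusted p of 0.0162, edgeR) and in Maf-KO (0.69, adjusted p of 0.00415). The WT call held in 17 of 19 alternatives. None of 10 Treg and CD4 T cell markers was at 0 in any group, and their summed level was 12395 to 13794 CPM in gut and 5332 to 6489 CPM in spleen. A gene is called here when its adjusted p in edgeR's quasi-likelihood test, two-sided with Benjamini-Hochberg adjustment over the 13214 genes, is under 0.05. In bulk RNA, fewer cells that express a gene and less RNA per cell cannot be told apart.

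Most of these genes differed between the tissues, and none was called between the genotypes. Of the 8 genes tested, 6 were higher in gut than in spleen in WT Tregs (Tbx21, Ifng, Il12rb2, Il18r1, Hopx and Runx3) and 0 lower, where edgeR called 28% of all genes tested, 14.7% higher and 13.3% lower. In Maf-KO Tregs 5 were higher in gut (the same genes without Il18r1) and 1 lower (Eomes), with 28.5% of all genes called, 14.4% higher and 14.1% lower. Between the genotypes 0 of 8 were called by edgeR in gut, where 0.151% of all genes were (0.0151% higher, 0.136% lower), and 0 of 8 in spleen, where 0.0151% were. DESeq2 and limma-voom each called 1 of the 8 in gut, Il12rb2, and 0 in spleen. Libraries of the tissues did not overlap for 7 genes higher and 1 lower in WT gut (25.9% and 27.5% of all genes tested) and for 5 higher and 1 lower in Maf-KO gut (27.5% and 28.9%). The median log2 change of the 8 genes was 1.13 for gut over spleen in WT and 1.31 in Maf-KO, against -0.03 and -0.02 for all genes tested. For Maf-KO over WT it was -0.21 in gut and -0.09 in spleen, against -0.0035 and -0.0064.

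**Figure D1:**
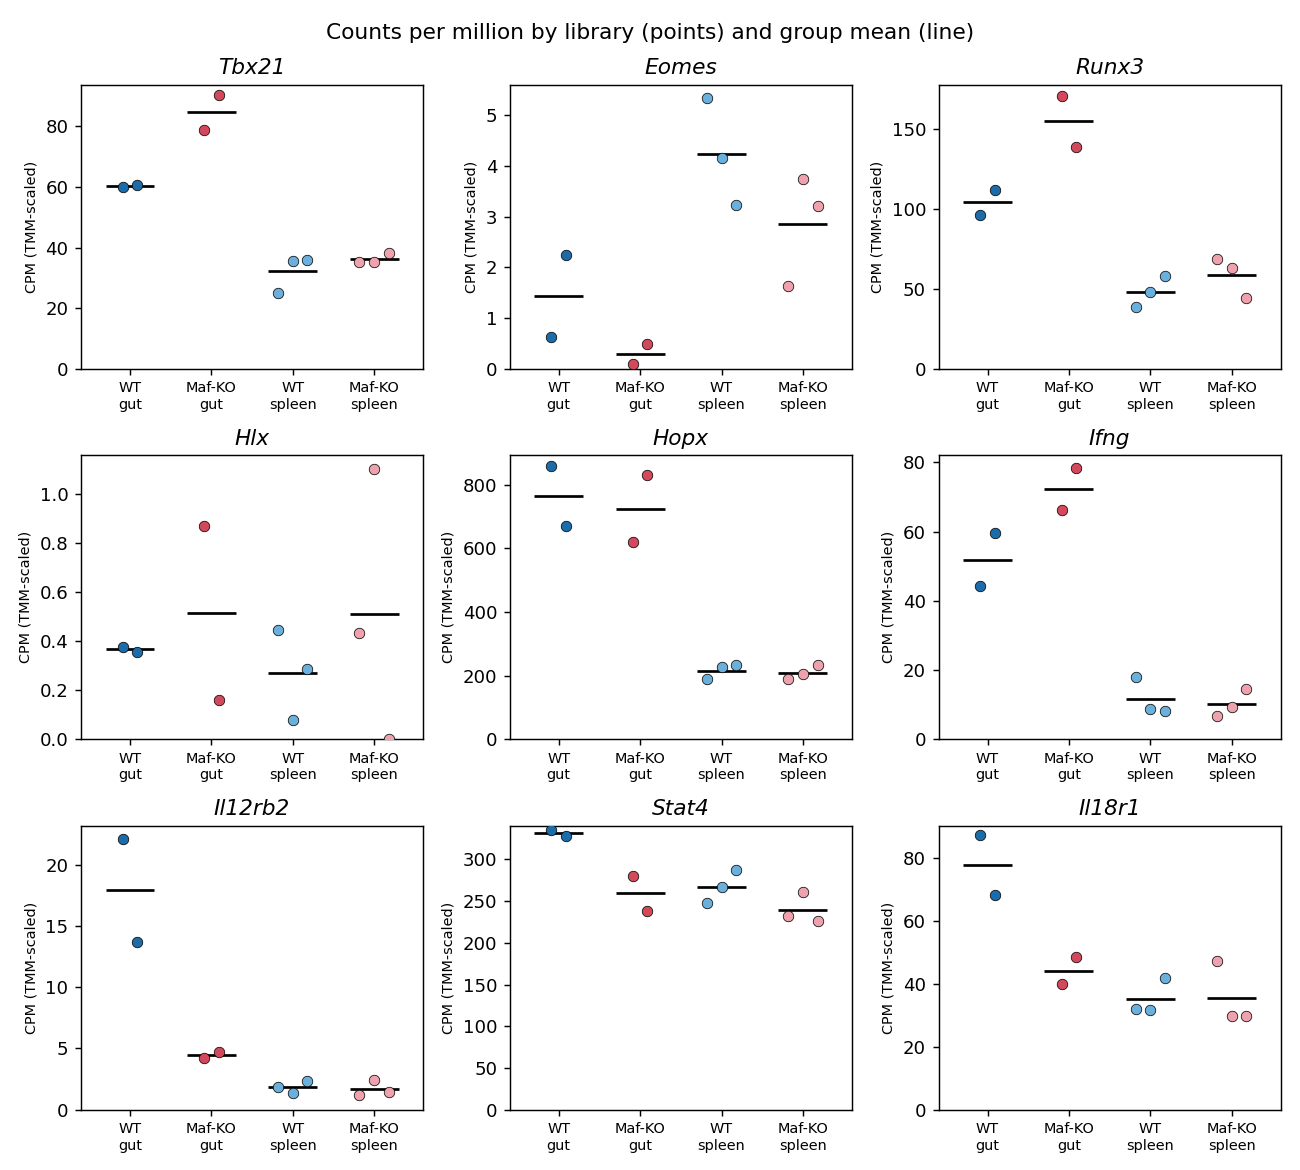
Level of each of the 9 genes in each library (points, CPM, linear axes that start at 0) with the mean of each group (line), with 2 libraries per genotype in gut and 3 in spleen. Tbx21, Ifng, Runx3 and Hopx stand higher in gut in both genotypes, Eomes stands lower, and Il12rb2 is at 13.7 and 22.1 CPM in WT gut against 4.26 and 4.71 in Maf-KO gut.

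Among the factors, Tbx21 encodes T-bet, the factor that defines the Th1 lineage. It was at 59.9 and 60.5 CPM in WT gut and 78.8 and 90.4 in Maf-KO gut. Spleen libraries were at 25.2, 35.5 and 36.0 CPM in WT, and at 35.3, 35.3 and 38.1 in Maf-KO. Every gut library was above every spleen library, and both Maf-KO gut libraries were above both WT gut libraries. Tbx21 was 1.87-fold higher in gut than in spleen in WT (log2 change 0.90, SE 0.16, adjusted p of 0.00215, edgeR) and 2.33-fold higher in Maf-KO (1.22, SE 0.15, adjusted p of 0.000355). The Maf-KO over WT change in gut was 0.49 on the log2 scale (95% interval 0.11 to 0.87, unadjusted p of 0.0164) and was not called (adjusted p of 0.49, edgeR). In spleen it was 0.17 (-0.15 to 0.49), with overlapping groups.

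Runx3, a Runt-domain factor that binds DNA with T-bet at Ifng, was at 96.0 and 112.2 CPM in WT gut and 171.1 and 138.7 in Maf-KO gut. In spleen it was at 38.7, 48.2 and 58.0 CPM in WT and 68.9, 63.2 and 44.6 in Maf-KO. All gut libraries were again above all spleen libraries, the gut groups did not overlap and the spleen groups did. Gut over spleen was 2.16-fold in WT (log2 change 1.11, SE 0.21, adjusted p of 0.00336, edgeR) and 2.63-fold in Maf-KO (1.40, SE 0.21, adjusted p of 0.000898). Maf-KO over WT was 0.57 in gut (0.06 to 1.08, adjusted p of 0.578) and 0.29 in spleen (-0.14 to 0.71, adjusted p of 0.999).

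Hopx had the highest FPKM of the 8 genes with such a value in every group. By CPM it was highest in gut, but below Stat4 in spleen (means of 215.4 against 267.0 in WT and 209.5 against 239.4 in Maf-KO). It was at 858.0 and 669.2 CPM in WT gut and 618.7 and 830.6 in Maf-KO gut, against 187.98 to 232.0 in WT spleen and 187.9 to 234.8 in Maf-KO spleen. The genotypes overlapped in both tissues, and the tissues did not overlap in either genotype. Gut over spleen was 3.54-fold in WT (log2 change 1.83, SE 0.17, adjusted p of 5.15e-05, edgeR) and 3.46-fold in Maf-KO (1.79, adjusted p of 6.73e-05). Of the 8 genotype changes in gut, that of Hopx was the smallest in size, at -0.08 (-0.50 to 0.34, adjusted p of 0.958).

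Stat4, the signal transducer activated by the IL-12 receptor, moved least between the tissues. It was at 334.4 and 327.4 CPM in WT gut, 280.1 and 238.4 in Maf-KO gut, 247.6, 266.5 and 287.0 in WT spleen, with Maf-KO spleen at 231.4, 260.6 and 226.1. WT gut stood above the other groups, which overlapped one another. Gut over spleen was 1.24-fold in WT (log2 change 0.31, SE 0.12) and was not called (adjusted p of 0.0733, edgeR). It was called with the title number as a replicate block, which pairs gut and spleen libraries (adjusted p of 0.037), and by DESeq2 (adjusted p of 0.0389). In gut Maf-KO over WT was -0.35 (-0.64 to -0.07, adjusted p of 0.518), with both Maf-KO libraries below both WT libraries.

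Eomes ran against the other factors. Its counts were 5 and 19 in WT gut, 1 and 6 in Maf-KO gut, 60, 54 and 34 in WT spleen, with 15, 34 and 33 in Maf-KO spleen. That is 0.628 and 2.25 CPM in WT gut, 0.0870 and 0.479 in Maf-KO gut, 3.23 to 5.33 in WT spleen and 1.63 to 3.74 in Maf-KO spleen. The lower Maf-KO gut library was under the floor of 3 counts, and the tissues did not overlap within either genotype. Gut was 9.57-fold below spleen in Maf-KO (log2 change -3.26, SE 0.74, adjusted p of 0.00914, edgeR), a call lost without Maf-KO gut replicate 2 (-2.55, adjusted p of 0.0679) and at -4.85 without Maf-KO gut replicate 3 (adjusted p of 0.0195). In WT the change was -1.54 (-2.93 to -0.16, adjusted p of 0.091), and in gut Maf-KO over WT was -2.28 (-4.10 to -0.46, adjusted p of 0.506). Single gut libraries moved that genotype value: it was -1.09 without WT replicate 3, -2.91 without WT replicate 1, -1.57 without Maf-KO replicate 2 and -3.87 without Maf-KO replicate 3, not called in any.

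Eomes is best known in CD8 T cells and NK cells. Markers of CD8 T, NK and innate lymphoid cells were measured in the same libraries. The summed level of 12 such markers was 39.7 to 62.4 CPM in WT gut and 49.0 to 68.1 in Maf-KO gut, against 84.5 to 146.8 in WT spleen and 59.0 to 166.7 in Maf-KO spleen. The sums did not overlap between the tissues in WT and overlapped in Maf-KO. In WT 3 of the 12 were called lower in gut and 1 higher, where 13.3% of all genes tested were called lower, and in Maf-KO 2 lower and 1 higher, where 14.1% were. Klra8 was the 1 marker at 0 in both gut groups. Their part in the Eomes values was not tested.

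Hlx was close to the floor everywhere. Its counts were 3 and 3 in WT gut, 10 and 2 in Maf-KO gut, 5, 1 and 3 in WT spleen, with 4, 10 and 0 in Maf-KO spleen. The largest value, 10 counts in Maf-KO spleen replicate 2, was 1.10 CPM (exact Poisson interval 0.528 to 2.02, counting error only), and all groups overlapped. With no filter on low counts the Hlx tests gave adjusted p-values of 0.852 to 1 (edgeR), so a difference was not detectable at this depth.

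Ifng encodes interferon gamma, the main Th1 cytokine. It was at 44.3 and 59.5 CPM in WT gut, 66.2 and 78.4 in Maf-KO gut, 17.95, 8.77 and 8.16 in WT spleen, with Maf-KO spleen at 6.72, 9.36 and 14.6. Every gut library was above every spleen library, and both Maf-KO gut libraries were above both WT gut libraries. Gut over spleen was 4.46-fold in WT (log2 change 2.16, SE 0.36, adjusted p of 0.00187, edgeR) and 7.04-fold in Maf-KO (2.82, SE 0.37, adjusted p of 0.000435). Maf-KO over WT in gut was 0.48 (-0.39 to 1.34, adjusted p of 0.81). The spleen difference of -0.18 (-0.95 to 0.59) changed sign without WT spleen replicate 1, the highest spleen library (0.28).

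Of the receptor chains, Il12rb2 is the signalling chain that Th1 cells keep and Th2 cells lose. Its counts were 176 and 116 in WT gut, 49 and 59 in Maf-KO gut, 21, 18 and 25 in WT spleen, with 11, 22 and 15 in Maf-KO spleen. In CPM that is 22.1 and 13.7 in WT gut, 4.26 and 4.71 in Maf-KO gut, 1.39 to 2.37 in WT spleen and 1.19 to 2.42 in Maf-KO spleen. WT gut stood above Maf-KO gut, and Maf-KO gut stood above all spleen libraries. Il12rb2 was 9.55-fold higher in gut than in spleen in WT (log2 change 3.26, SE 0.36, adjusted p of 0.000149, edgeR) and 2.65-fold higher in Maf-KO (1.40, SE 0.37, adjusted p of 0.018). The Maf-KO call was lost without gut replicate 2 (adjusted p of 0.0565) or 3 (0.0897) and without spleen replicate 1 (0.0546) or 3 (0.0558) of that genotype.

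Between the genotypes in gut, Il12rb2 was 3.98-fold lower in Maf-KO (log2 change -1.99, SE 0.39, 95% interval -2.85 to -1.14). The unadjusted p was 0.000421 and the adjusted p 0.126 (edgeR), so it was not called. It was called by DESeq2 (adjusted p of 0.00157), by limma-voom (0.0449) and by edgeR with no filter on low counts (0.0329), 3 of 18 alternatives, over which the adjusted p ran from 0.00157 to 0.748. Its direction was lower in all 18. In spleen the difference was -0.14 (-0.93 to 0.65). The difference of the genotype effects between the tissues was -1.85 (-3.01 to -0.69, unadjusted p of 0.00526, adjusted p of 1), so a difference between the tissues was not called.

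In the GENCODE M21 annotation (GRCm38), 1519 of the 3794 exon bases of Il12rb2 (40%) are shared with Serbp1, a gene on the opposite strand. The sources used here do not say whether counting used strand, and without it reads from both genes in that stretch cannot be told apart. Serbp1 held 31306 counts over the 10 libraries against 512 for Il12rb2. It did not move with Il12rb2: its log2 change was 0.09 for Maf-KO over WT in gut (adjusted p of 0.899, edgeR) and -0.02 for gut over spleen in WT (adjusted p of 0.896). Ifng, Stat4, Hopx and Eomes share 25.9%, 26.7%, 27.2% and 2.84% of their exon bases with annotated genes for which no counts were listed.

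Il18r1 is the IL-18 binding chain. It was at 87.2 and 68.2 CPM in WT gut, 39.8 and 48.4 in Maf-KO gut, 31.9, 31.6 and 41.7 in WT spleen, with Maf-KO spleen at 47.0, 29.7 and 29.8. WT gut stood above all other libraries, and Maf-KO gut overlapped with spleen. Gut over spleen was 2.21-fold in WT (log2 change 1.15, SE 0.22, adjusted p of 0.00416, edgeR) and 1.24-fold in Maf-KO (0.31, -0.19 to 0.82, adjusted p of 0.342). Without both WT replicate 1 libraries (gut and spleen) the WT call was lost (0.89, adjusted p of 0.102). With the title number as a replicate block the Maf-KO change was called (0.56, adjusted p of 0.0346).

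In gut Il18r1 was 1.76-fold lower in Maf-KO than in WT (log2 change -0.82, -1.37 to -0.26, unadjusted p of 0.0082), which was not called (adjusted p of 0.413, edgeR). In spleen the difference was 0.02 (-0.44 to 0.48). The difference of the 2 genotype effects was -0.83 (-1.55 to -0.12, unadjusted p of 0.0267, adjusted p of 1). On that test 2 of the 8 genes had an unadjusted p under 0.05, Il12rb2 and Il18r1, against 3.19% of all genes tested, and 0% of genes were called (0 of 8 also by DESeq2 and limma-voom).

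**Figure D2:**
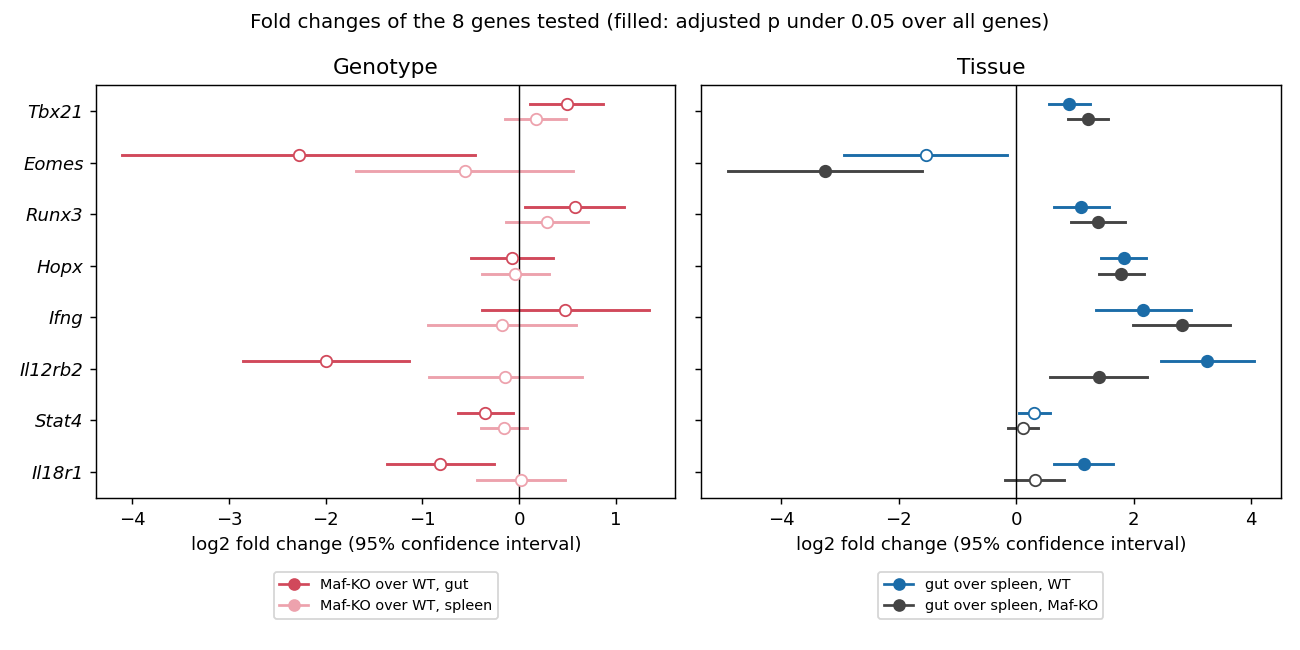
Log2 fold changes of the 8 genes tested, with 95% intervals, for Maf-KO over WT (left, gut and spleen) and gut over spleen (right, WT and Maf-KO), where filled points have an adjusted p under 0.05 over all genes. No point is filled on the left, where Il12rb2 in gut is at -1.99 and Eomes at -2.28, and 12 are filled on the right.

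In the genotype contrast in gut, 6 of the 8 genes had an unadjusted p under 0.05 (Tbx21, Eomes, Il12rb2, Il18r1, Stat4 and Runx3), where 8.14% of all genes tested did. They did not move one way. Maf-KO libraries were above WT libraries without overlap for 3 genes (Tbx21, Ifng and Runx3) and below for 4 (Eomes, Il12rb2, Il18r1 and Stat4), where 17.4% and 18.8% of all genes tested were. In spleen 0 of 8 had an unadjusted p under 0.05 and all 8 overlapped. There 2.85% of all genes tested had such a p and 7.51% did not overlap. The tissue contrasts share their gut and spleen libraries with these genotype contrasts.

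The other chains of both receptors were measured too. Il12rb1, which pairs with Il12rb2 for IL-12 and with Il23r for IL-23, was at 201.1 and 197.2 CPM in WT gut and 132.2 and 181.5 in Maf-KO gut, against 52.3 to 57.3 in WT spleen and 41.3 to 61.1 in Maf-KO spleen. It was higher in gut in both genotypes (log2 change 1.88 in WT, adjusted p of 4.72e-05, and 1.57 in Maf-KO, adjusted p of 0.000161, edgeR). Il18rap, the accessory chain of the IL-18 receptor, was at 69.7 and 47.2 CPM in WT gut and 38.1 and 45.6 in Maf-KO gut, and at 15.4 to 25.6 CPM in spleen. It was higher in gut in WT (1.63, adjusted p of 0.000371) and in Maf-KO (0.87, adjusted p of 0.0107). Both Maf-KO gut values lay below both WT gut values for all 4 chains, as they did for 18.8% of all genes tested. The log2 changes of -0.34 for Il12rb1 (adjusted p of 0.691, edgeR) and -0.48 for Il18rap (adjusted p of 0.631) were not called.

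**Figure D3:**
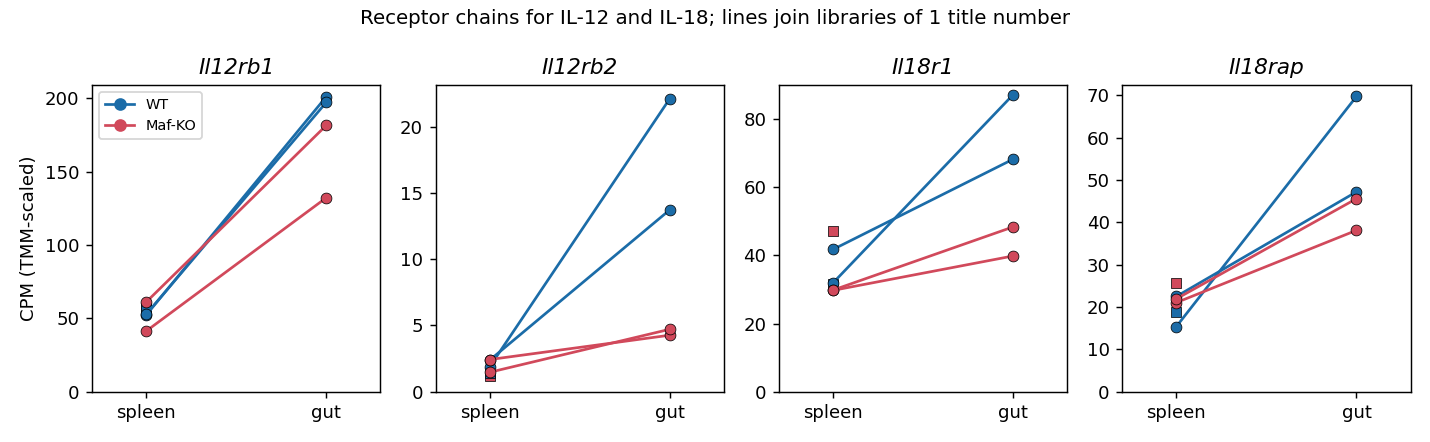
CPM of the 4 receptor chains for IL-12 and IL-18 in spleen and gut (linear axes that start at 0). Lines join gut and spleen libraries that share a title number and squares are spleen libraries without a gut partner. Every line rises from spleen to gut, and in gut the Maf-KO points (red) lie below the WT points (blue). The latter holds for 18.8% of all genes tested.

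Within title numbers, gut over spleen was higher in 4 of 4 pairs for Tbx21 (1.68- to 2.38-fold), Ifng (2.47- to 7.29-fold), Hopx (2.88- to 4.56-fold), Runx3 (1.94- to 3.11-fold), Il12rb2, Il18r1 and Stat4 (1.05- to 1.35-fold). For Il12rb2 the folds were 11.8 and 5.78 in the WT pairs and 1.76 and 3.22 in the Maf-KO pairs. For Il18r1 they were 2.73 and 1.63 in WT and 1.34 and 1.62 in Maf-KO. Eomes was lower in gut in 4 of 4 pairs, with gut at 0.118 and 0.697 of the spleen level in WT.

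Il18r1 and its neighbours form a cluster of IL-1 family receptors. It lies on chromosome 1 at 40465552 to 40500854 (GRCm38), 134 bases from Il1rl1, the IL-33 receptor, and 14508 bases from Il18rap. Il1rl1 was also higher in gut, by 1.40 in WT (adjusted p of 0.00696, edgeR) and 0.98 in Maf-KO (adjusted p of 0.0361), and at -0.22 for Maf-KO over WT in gut (adjusted p of 0.924). Il12rb2 lies on chromosome 6 at 67285986 to 67376293, 46639 bases from Il23r, the IL-23 receptor chain. Il23r was 6.06 higher in gut than in spleen on the log2 scale in WT (adjusted p of 0.00169) and 3.04 higher in Maf-KO (adjusted p of 0.0277). WT spleen held 0 to 5 counts of it per library, 9 in all, so the WT change is set against a group near the floor. The Maf-KO call held in 12 of 19 alternatives. It was lost by DESeq2 (adjusted p of 0.104) and without gut replicate 2 (0.0626) or 3 (0.108) or spleen replicate 2 (0.0811) of that genotype, and the change was 4.50 without spleen replicate 1 and 2.43 without spleen replicate 3.

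Per transcript length, on the authors' FPKM scale, the order in WT gut was Hopx (479.1 ± 99.6, SD, n = 2), Stat4 (104.9 ± 5.11), Ifng (40.5 ± 7.01), Runx3 (25.2 ± 1.94), Tbx21 (22.3 ± 0.585), Il18r1 (15.4 ± 3.16), Il12rb2 (5.78 ± 2.09) and Eomes (0.367 ± 0.279). The order in Maf-KO gut was the same, and in neither gut group did libraries of neighbouring genes overlap. In spleen Hopx (159.1 ± 13.2 in WT, n = 3) and Stat4 (88.4 ± 6.52 in Maf-KO, n = 3) led again. Tbx21 (14.1 ± 2.29), Runx3 (13.8 ± 2.46), Ifng (10.9 ± 5.50) and Il18r1 (8.20 ± 1.25) followed in WT spleen, where each overlapped with the next. Eomes (1.29 ± 0.356) and Il12rb2 (0.720 ± 0.187) were lowest there without overlap, and in Maf-KO spleen those 2 overlapped. Hlx has no FPKM value in the files used.

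**Figure D4:**
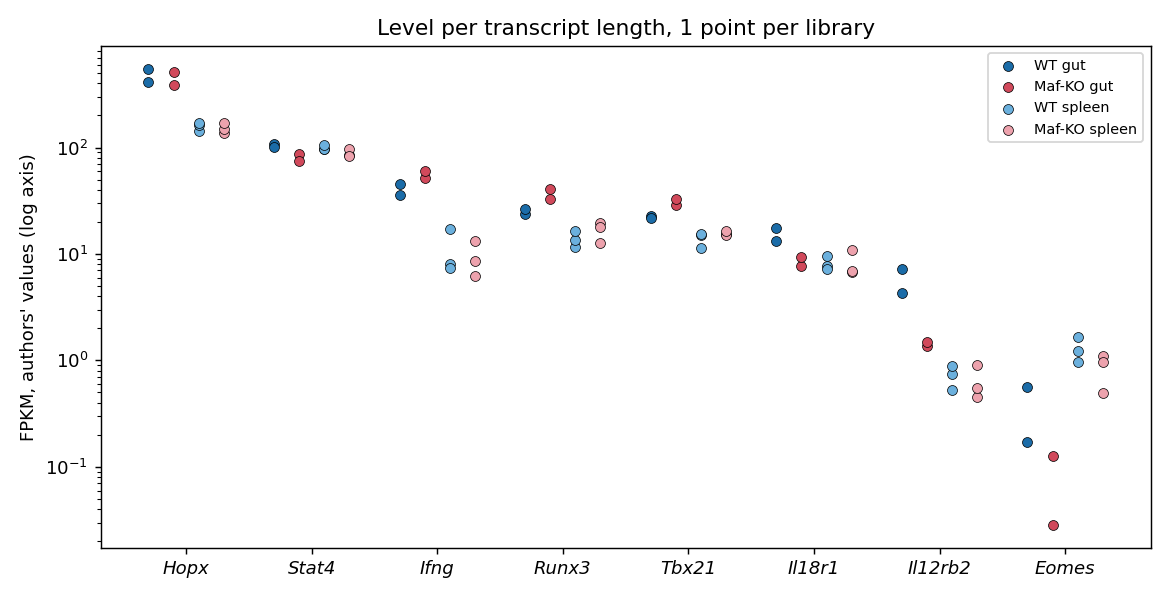
The authors' FPKM of 8 of the genes in each library (points, log axis), ordered by their level, coloured by group. Hopx and Stat4 are the highest in every library, Il12rb2 and Eomes the lowest, and the spleen points of Eomes lie above its gut points within each genotype.

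Genes of the surrounding pathways were counted from lists without these 9 genes. Over all genes tested, 14.7% were called higher and 13.3% lower in gut in WT, and 14.4% and 14.1% in Maf-KO. Of 9 tested genes of IL-12 and IL-23 signalling, 4 were called higher and 1 lower in WT gut than in WT spleen (median log2 change 0.28), and 5 and 0 in Maf-KO (0.52). They include Jak2, the kinase on Il12rb2 (1.46 in WT, adjusted p of 2.02e-05), Il12rb1, Il23r and Ebi3, a subunit of IL-27 and IL-35 (1.04, adjusted p of 0.000144, all edgeR). Of 15 genes of IL-18 and IL-1 signalling, 6 were higher and 1 lower in each genotype (medians -0.16 in WT, against the direction of most calls, and 0.23 in Maf-KO). Il1r1, the IL-1 receptor, was 4.80 higher in WT gut (adjusted p of 0.000113), and Tollip, an adaptor of that pathway, 0.56 higher (adjusted p of 0.00797). The 1 lower gene was Il18 itself, at -1.61 in WT (adjusted p of 0.015, a gene singled out after its values were seen) and -2.10 in Maf-KO (adjusted p of 0.00384).

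Of 10 tested partners of the T-box and Runx factors, 5 were higher and 1 lower in gut in each genotype (medians 0.89 in WT and 0.78 in Maf-KO). The shares over all genes tested were 14.7% higher and 13.3% lower in WT, and 14.4% and 14.1% in Maf-KO. Bhlhe40, a repressor of Il10 in Th1 cells, was 4.70 higher in gut in WT (adjusted p of 2.55e-05, edgeR), and Id2, an inhibitor of E proteins, 3.47 higher (adjusted p of 1.68e-05). Runx2 was 1.77 higher (adjusted p of 4.92e-05), and Prdm1, which encodes Blimp-1, 2.32 higher (adjusted p of 0.00153). Between the genotypes 0 of the genes in these 3 lists were called in gut or spleen by edgeR, DESeq2 or limma-voom. At an unadjusted p under 0.05 edgeR gave 2 of 9, 2 of 15 and 1 of 10 in gut, where 8.14% of all genes tested had such a p, and 0 in spleen, where 2.85% did.

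Th1 effector genes were mostly higher in gut. Of 20 tested, 15 were called higher and 3 lower in WT (median 2.79), and 16 and 2 in Maf-KO (2.82). The shares called among all genes tested were 14.7% higher and 13.3% lower in WT, and 14.4% and 14.1% in Maf-KO. Gzmb, a cytotoxic granule protease, was 6.12 higher in WT gut on the log2 scale (adjusted p of 1.41e-05, edgeR), the chemokine receptor Cxcr6 4.40 (adjusted p of 1.51e-06), the chemokine Xcl1 4.01 (adjusted p of 7.77e-06) and the death ligand Fasl 2.85 (adjusted p of 1.53e-06). The 3 lower in WT, named after their values were seen, were Cxcr3 (-0.97, adjusted p of 0.00167), a receptor whose gene T-bet activates, Il2rb (-0.58, adjusted p of 0.0178) and Lta (-1.59, adjusted p of 0.00289). Libraries of the gut also held more B and plasma cell RNA (summed level of 8 markers 1169 to 6398 CPM in gut, 189.8 to 449.3 in spleen, 0 of 8 at 0 in any group) and gut epithelium RNA (9 markers, 139.4 to 176.7 CPM in gut, 35.2 to 70.6 in spleen, Alpi at 0 in all groups). Macrophage and dendritic cell markers overlapped between the tissues (10 markers, 97.6 to 260.2 CPM in gut, 104.8 to 266.1 in spleen). The part of these cells in the tissue differences was not tested.

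In the genotype contrast in gut, 1 of the 20 effector genes was called, Nkg7, a granule protein of cytotoxic and Th1 cells. Among all genes tested, edgeR called 0.151% there, with 0.0151% higher in Maf-KO. It was at 261.8 and 341.1 CPM in WT gut and 648.8 and 735.6 in Maf-KO gut, 2.30-fold higher without overlap (log2 change 1.20, SE 0.14, adjusted p of 0.0154, edgeR). The call was lost in 4 of 18 alternatives. These were the fit to the gut groups alone (adjusted p of 0.175) and those without replicate 3 of WT gut (0.0825) or replicate 2 (0.0843) or 3 (0.127) of Maf-KO gut. DESeq2 and limma-voom called 2 of the 20 higher in gut, Nkg7 and Fasl (0.87 in edgeR, adjusted p of 0.0962). In spleen edgeR called 0 of 20 (5 at an unadjusted p under 0.05, against 2.85% of all genes tested) and limma-voom 0. The median of the 20 was 0.39 in gut and 0.0033 in spleen, with 13 and 10 of 20 above 0. Of all genes tested, 49.3% were above 0 in gut and 48.5% in spleen. Pancreatic acinar markers, a sign of carried-over tissue, differed between the gut groups as well (10 markers, 39.1 to 168.4 CPM in WT gut, 15.8 to 27.3 in Maf-KO gut, 0 and 8 of 10 at 0), and their part in the genotype values was not tested.

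Of the receptor, signalling and target genes of interferon gamma, more were lower than higher in gut. Of 23 tested, 2 were higher and 9 lower in gut than in spleen in WT (median -0.36), and 2 and 6 in Maf-KO (-0.17). Among all genes tested, 14.7% were called higher and 13.3% lower in WT, and 14.4% and 14.1% in Maf-KO. The guanosine triphosphatases Irgm1 (-1.40, adjusted p of 5.02e-05, edgeR) and Iigp1 (-1.26, adjusted p of 0.000166) and the factor Irf8 (-1.24, adjusted p of 0.000179) fell in WT gut, and the chemokine Cxcl10 rose by 2.21 (adjusted p of 0.000272). Between the genotypes 0 of 23 were called in gut (median -0.01) and 0 in spleen (-0.12), and DESeq2 and limma-voom called 0 in either. An unadjusted p under 0.05 (edgeR) was found for 2 in gut, against 8.14% of all genes tested, and for 2 in spleen, against 2.85%.

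**Figure D5:**
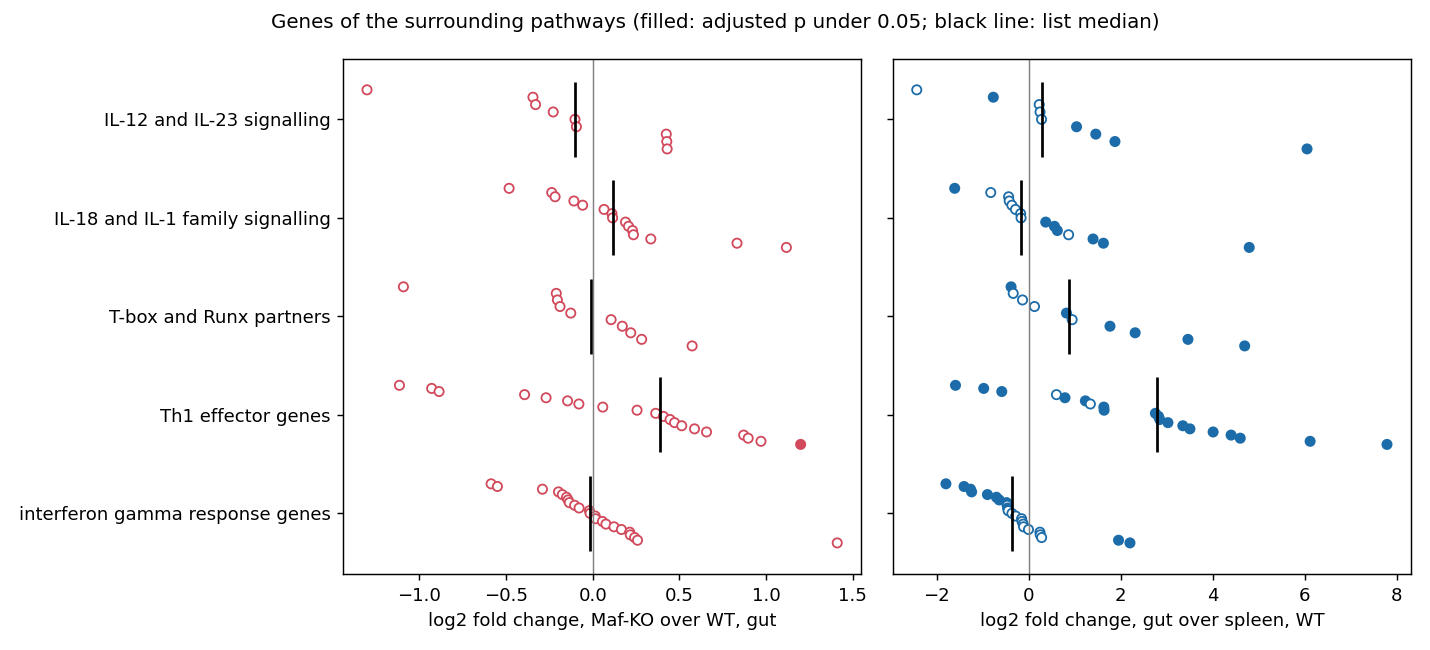
Log2 fold changes of the genes in 5 surrounding lists (1 point per gene) for Maf-KO over WT in gut (left) and gut over spleen in WT (right), with the list median as a black line and filled points for an adjusted p under 0.05 over all genes. On the right the median of the Th1 effector genes is 2.79 and that of the interferon gamma response genes -0.36, and on the left 1 point is filled, Nkg7 at 1.20.

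Of 12 tested factors of the other helper lineages, 8 were called higher and 3 lower in gut in WT (median 1.47), and 6 and 3 in Maf-KO (1.11). For all genes tested the shares were 14.7% higher and 13.3% lower in WT, and 14.4% and 14.1% in Maf-KO. Rora was 3.22 higher in WT gut (adjusted p of 4.36e-07, edgeR) and Gata3, the Th2 factor, 2.22 (adjusted p of 1.47e-05). The 3 lower in both genotypes, named after their values were seen, were Tcf7, Lef1 and Bach2.

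The genes whose profile over the 10 libraries was nearest to each of the 8 were ranked by the root mean square (RMS) difference of log2 CPM, each profile centred on its mean, among 9459 or 9460 genes. Il12rb2 was nearest to Kctd12 (RMS difference 0.35, where its own spread about its mean was 1.29), then Ccr2 and Ctla2a. Kctd12 was at -1.90 for Maf-KO over WT in gut (adjusted p of 0.164, edgeR) and 2.90 for gut over spleen in WT (adjusted p of 0.000292), and Ccr2, a chemokine receptor, at -1.83 (adjusted p of 0.298) and 2.58 (adjusted p of 0.00168). Tbx21 was nearest to Josd1 (0.08), Nup98 and Cwc25, and Runx3 to Slc52a3 (0.18), Nup98 and Sh2d2a. Ifng was nearest to Dnajb9 (0.28), Klf6 and Plcxd2, Hopx to Slc38a2 (0.14), Ipmk and Srgn, and Il18r1 to Mthfs (0.18), C1qtnf12 and Aldh7a1. Stat4 was nearest to Chmp5 (0.08), Bptf and Selenop, and Eomes to Matn2 (0.50), Cecr6 and Nedd4l.

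Promoters of the 9 genes, of which 6 were called higher in WT gut, were read for motifs of the factors of this pathway. RefSeq (GRCm38.p6) gave 14 promoters for the 9 genes, each from 250 bases before to 50 bases after a transcript start. The motifs, chosen with the expression values known, were searched on both strands. A STAT site (TTCNNNGAA) was found in 3 of 9 genes (Ifng, Il12rb2 and Il18r1), and 8.3% of 32851 promoters of that length hold it. A Runx site (TGNGGT) was found in 4 of 9 (45.8% of promoters), a T-box core (GGTGTG) in 1 (19%), a Maf half-site (TGCTGA) in 2 (19.5%) and an AP-1 site (TGANTCA) in 0 (7.81%). Several of the 9 genes have more than 1 promoter, which raises their chance of a match. A match is a string of letters, not a bound site.

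Below are the stretches before the first base of Ifng, Runx3 and Il12rb2, shown because they hold STAT or Runx matches of 3 genes that were higher in gut. They lie at chr10:118440796-118441045 (plus strand), chr4:135120395-135120644 (plus strand) and chr6:67376294-67376438 (minus strand), and capitals mark the matches. In Ifng the capitals are a STAT match 249 bases before the start, in Runx3 a pair of Runx matches 134 and 126 bases before it, and in Il12rb2 a STAT match that shares its last base with a Runx match. The Il12rb2 STAT match is 123 bases before the transcript start at position 67376188, which lies inside the gene's span. Another Runx match of Il12rb2, 85 bases before that start, lies outside the printed stretch.
Ifng: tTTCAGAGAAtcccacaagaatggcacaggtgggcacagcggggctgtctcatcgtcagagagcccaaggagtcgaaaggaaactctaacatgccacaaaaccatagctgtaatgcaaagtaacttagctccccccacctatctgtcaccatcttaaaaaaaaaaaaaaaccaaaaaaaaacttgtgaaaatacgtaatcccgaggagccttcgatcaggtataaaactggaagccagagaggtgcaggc
Runx3: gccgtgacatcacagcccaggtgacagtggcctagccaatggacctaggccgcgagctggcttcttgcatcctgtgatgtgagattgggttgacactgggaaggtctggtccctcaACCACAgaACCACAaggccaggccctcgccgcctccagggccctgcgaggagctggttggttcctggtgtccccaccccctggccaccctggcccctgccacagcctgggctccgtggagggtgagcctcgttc
Il12rb2: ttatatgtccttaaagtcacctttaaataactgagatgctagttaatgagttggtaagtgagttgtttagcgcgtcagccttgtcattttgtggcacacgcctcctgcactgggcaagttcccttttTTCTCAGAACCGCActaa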

How the data were processed

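RNA of sorted Tregs was sequenced from TruSeq libraries, per the labels' protocols. The deposited count table gives unnormalised read counts by Entrez gene. The deposited log2 files give log2 FPKM of 12252 genes per library. Per the submitters' processing notes, GRCm38 or mm10 was the genome build, and the tools named are limma, featureCounts and Subread. No source used here gives aligner settings, annotation or strandedness. The 852 entries without a symbol stayed in totals and tests.

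Tests used edgeR 4.0.16 (R 4.3.3). After filterByExpr (minimum count 10, minimum total 15) and TMM scaling (0.887 to 1.12), all 10 libraries entered 1 quasi-likelihood fit of the 4 group means, tested for Maf-KO against WT in each tissue, gut against spleen in each genotype, and the interaction. The SE is the size of the log2 change divided by the square root of F. FPKM printed are 2 to the power of the authors' log2 values. Scripts were tested on simulated data. For Maf-KO over WT in gut, 45% of 100 genes given a 2-fold change were called, and 91% of 100 given a 4-fold change. For gut over spleen in WT these shares were 59% and 96%. Genes as low as Eomes and Hlx were not among those changed. Intervals of log2 changes come from this fit and include the spread between libraries; Poisson intervals and the floor cover counting error only.

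Replicates varied by more than counting (chi-square per degree of freedom 13.9 to 32.6). Titles give 4 numbers to both a gut and a spleen library, and deviations of same-numbered libraries from their group means correlated (0.31, 0.26, 0.38 and 0.36), so these numbers were taken to pair the tissues; with 2 gut libraries per genotype these correlations are not independent.

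The 9 genes, all lists and the motifs were chosen with earlier results of these data known. Named were the 9 genes, Maf, Foxp3, up to 4 called genes of each list by adjusted p (else up to 2 by unadjusted p), and the 3 nearest profiles per gene (mean of at least 5 CPM; predicted, ribosomal, mitochondrial and receptor segment genes left out); named receptor chains, neighbours and other genes beyond these were chosen after their values were seen. Results of some genes in the lists are not reported here. Tbxt, of the T-box list, was not found in the count table. Alternatives were DESeq2 size factors, no filter, DESeq2 1.42.0, limma-voom and limma-trend (limma 3.58.1), groups alone, title number as block or random effect, each library left out, and, added after seeing the data, both WT replicate 1 libraries left out.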

Additional observations from a re-analysis of the deposited data

How the results depend on the processing

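Tbx21, Ifng, Hopx and Runx3 kept their gut over spleen calls under all 19 alternatives in both genotypes, and Il12rb2 did in WT. Beyond the changes of call given with the results, Eomes in WT gut against spleen was called with the title number as a random effect (adjusted p of 0.0378) and without WT gut replicate 3 (0.0466), and Stat4 in WT with that random effect (0.0132). The replicate block by title number changed no other call among the 9 genes and gave 4913 genes called between the tissues in WT (3703 without it), 5242 in Maf-KO (3772) and 0 for the interaction. Replicate numbers of WT and Maf-KO spleen did not pair libraries (correlations of -0.04, -0.18 and -0.35), and with them as a replicate block 0 genes called in spleen were left of 2.

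Between the genotypes in gut, genes called were 20, against 74 with no filter, 112 by DESeq2, 33 by limma-voom, 12 with the groups alone, 42 with the random effect and 5 without both WT replicate 1 libraries, and 4 to 22 when 1 library was left out, 4 without Maf-KO gut replicate 2. In spleen they were 2, against 12 with no filter, 19 by DESeq2, 0 by limma-voom, 5 by limma-trend, 1 with the groups alone, 0 with the random effect and 0 without WT replicate 1, and 2 to 9 when 1 library was left out. The 0 genes called by the interaction in edgeR (422 at an unadjusted p under 0.05) were 8 by DESeq2. In WT gut against spleen they were 1669 without WT replicate 1 and 2183 to 3597 without 1 library, and in Maf-KO 5777 with the random effect and 2118 to 3784 without 1 library. The cause of these differences was not tested.

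Log2 changes whose sign turned were not called. In the main fit they ran from -0.23 (Maf, gut over spleen in Maf-KO) to 0.17 (Foxp3, interaction), and some alternatives went further. In gut Hopx was at 0.12 and Foxp3 at -0.088 without WT replicate 1, and without single libraries Hopx ran from -0.30 to 0.12 and Foxp3 from -0.086 to 0.31, with -0.05 without Maf-KO gut replicate 2. In spleen Ifng was at 0.28 without WT replicate 1 and ran from -0.53 to 0.28, Il12rb2 from -0.48 to 0.059 and Hopx from -0.13 to 0.032. Il18r1 in spleen was at -0.0022 by limma-voom, -0.026 by limma-trend, -0.00095 with the random effect, -0.0058 with the replicate block and -0.046 without WT replicate 1, and ran from -0.24 to 0.16. Gut over spleen in Maf-KO turned for Stat4 (-0.13 by limma-trend, -0.0060 to 0.23 without 1 library) and Maf (0.015 by limma-voom, -1.003 to 0.98). In the interaction Hopx was at 0.25 without WT replicate 1 and ran from -0.26 to 0.16, and Foxp3 from -0.012 to 0.38.

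Depth limited Eomes and Hlx, with at most 60 and 10 counts in a library.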
